A study of Mus musculus with 16 samples.

Results

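The data compared how brown adipocytes responded to SR-3420 in the presence of triacsin C and in the presence of etomoxir. For each gene the quantity of interest was the difference between 2 responses, namely triacsin C with SR-3420 minus triacsin C, less etomoxir with SR-3420 minus etomoxir. The samples were chosen by their treatment labels, and 12 of the 16 samples of the series entered the difference, 3 in each of the 4 groups. Vehicle and SR-3420 without an inhibitor, with 2 samples each, served as reference. The cells were a mouse brown preadipocyte line made immortal with the SV40 large T antigen, with a wild-type genotype, and were differentiated in culture until day 7. The inhibitors were given 1 h ahead of a further 3 h with or without SR-3420. The triacsin C group received 5 µM triacsin C, the etomoxir group 50 µM etomoxir, and the groups with SR-3420 received 10 µM of that compound on top, a dose on which the sources differ and which is given here as the labels state it. The vehicle was DMSO. A single immortal line was used, and the study's methods describe 3 independent experiments.

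SR-3420 binds ABHD5 and frees this protein to activate the triglyceride lipase ATGL, so that fatty acids are set free from lipid droplets without a β-adrenergic signal. Triacsin C blocks long-chain acyl-CoA synthetases, which join a fatty acid to coenzyme A before it can be re-esterified or oxidized. Etomoxir acts a step later and blocks carnitine palmitoyltransferase 1, which hands the acyl group to carnitine for entry into mitochondria. The comparison asks whether the transcriptional answer to lipolysis depends on which of these steps is blocked.

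Total counts ranged from 9452861 to 15818919 in the triacsin C group, from 10659704 to 16265789 in triacsin C with SR-3420, from 10993504 to 14993463 in etomoxir and from 13173278 to 25670624 in etomoxir with SR-3420. The vehicle samples held 14032494 and 10097582 counts and those with SR-3420 alone 19156037 and 15667121. Replicates of a group differed by 4.36 to 160 times the sampling noise (chi-square per degree of freedom, 14 pairs), and no pair was identical. The adipocyte identity of the cells was visible in the counts: all 10 adipocyte markers were measured and passed the filter on low counts, led by Fabp4 at 125600 normalized counts per kb of counted length. Triacsin C replicate 1 and etomoxir with SR-3420 replicate 2 stood apart from the other samples that carry their replicate number, and counts without them are given below.

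The genes with a lower response to SR-3420 under triacsin C than under etomoxir included the hypoxia-inducible Egln3 and Ankrd37, the fatty acid receptor gene Ffar4 and the glycogen-targeting Ppp1r3c. Most genes with a lower response were short, although Egln3, at 24894 bases, was longer than the median gene tested (21740.5 bases). Those with a higher response were more numerous and mostly long, among them Prkce and Esr1, which rose with triacsin C and fell with etomoxir. The response to SR-3420 differed between the inhibitors for 293 of 12786 genes tested (2.29%, adjusted p under 0.05 by edgeR's quasi-likelihood test). The difference was above 0, that is, the response was higher with triacsin C, for 194 genes (1.52%), and below 0 for 99 genes (0.774%). The higher genes had a median difference of 0.98 on the log2 scale and the lower ones of -1.61, against -0.06 over all genes tested. Among the lower genes 83 differed by at least 1 on that scale, and among the higher ones 95. By DESeq2's Wald test 682 genes differed, 454 higher and 228 lower. With a term for replicate number, which 2 libraries did not follow, edgeR gave 1055 genes, 634 higher and 421 lower. Without that term, the number of genes by edgeR fell when single samples were left out. It was 145 without triacsin C replicate 2, 146 without triacsin C replicate 3, 156 without etomoxir replicate 2 and 162 without triacsin C with SR-3420 replicate 1. It was 191 without etomoxir with SR-3420 replicate 1 and 192 without triacsin C with SR-3420 replicate 3. It was 197 without triacsin C replicate 1, 200 without etomoxir with SR-3420 replicate 2 and 106 without both of these libraries.

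**Figure D1:**
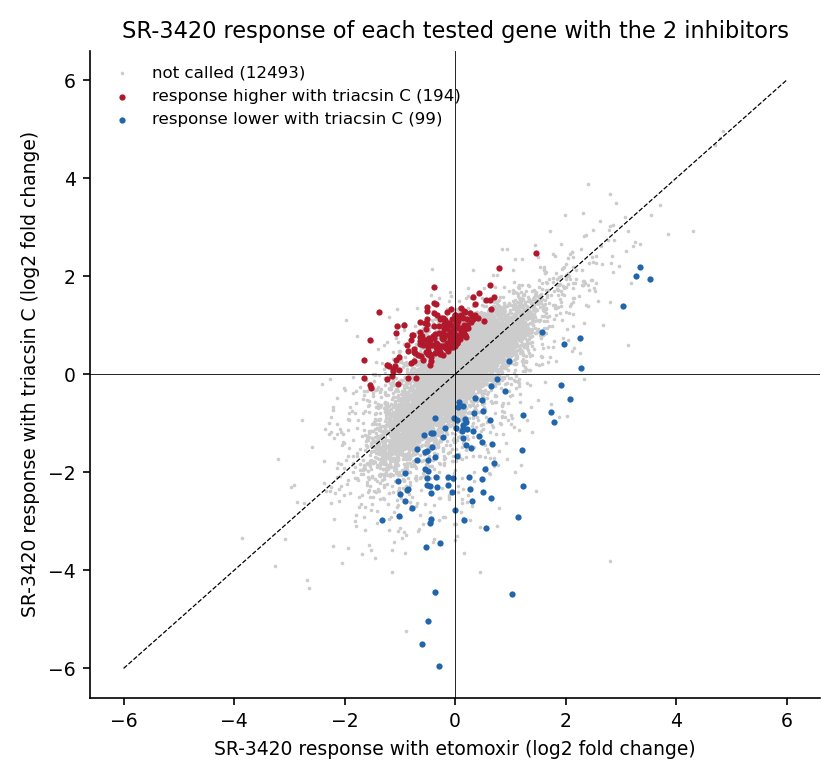
Each point is 1 of the 12786 genes tested, placed by its log2 fold change to SR-3420 with etomoxir (horizontal) and with triacsin C (vertical), with equal responses on the dashed line. The 194 genes with a higher response under triacsin C lie above the line, many of them at a small negative etomoxir response, and the 99 with a lower response lie below it, most of them far down the triacsin C axis.

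Each response on its own comprised many more genes. With triacsin C, SR-3420 raised 2208 genes (17.3%) and lowered 2514 (19.7%). With etomoxir it raised 1597 (12.5%) and lowered 1637 (12.8%), a total of 3234 genes that became 1989 without etomoxir with SR-3420 replicate 2. Of the 194 higher genes, 114 rose with triacsin C and did not pass the test with etomoxir, 42 rose with triacsin C and fell with etomoxir, 25 fell with etomoxir and did not pass with triacsin C, and 13 rose with each inhibitor. Of the 99 lower genes, 61 fell with triacsin C and did not pass with etomoxir, 18 fell with each, 8 rose with each, 6 fell with triacsin C and rose with etomoxir, and 6 rose with etomoxir and did not pass with triacsin C.

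The 4 group levels behind these differences were unequal mainly in the cells that had not received SR-3420. Without SR-3420, triacsin C exceeded etomoxir for 1033 genes (8.08%) and lay below it for 1125 (8.8%), 2158 genes in all, and 1247 and 1405 without triacsin C replicates 2 and 3. With SR-3420 the same comparison gave 15 genes (0.117%) and 23 genes (0.18%), and 206 in all by DESeq2, which gave 2763 without SR-3420. These comparisons share their samples with the difference between responses and are given as a description. Of the 194 higher genes, 188 were lower in triacsin C than in etomoxir before SR-3420 and not called with it, and 6 were lower in both states. Of the 99 lower genes, 94 were higher in triacsin C before SR-3420 and not called with it, 3 were higher in both states and 2 in neither. The 38 genes called with SR-3420 were a count that rested on single libraries. It was 23, 25 and 22 without each of triacsin C replicates 1 to 3, 13, 3 and 5 without each of triacsin C with SR-3420, 22 without etomoxir replicate 2, and 6, 83 and 14 without each of etomoxir with SR-3420.

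The genes were chosen by a contrast that includes triacsin C alone, so the order of the groups is a description. The median log2 level of the 194 higher genes, relative to the mean of vehicle, was -1.17, -1.24 and -1.23 in the 3 samples of triacsin C. It was -0.41, -0.47 and -0.49 in triacsin C with SR-3420, -0.02, -0.02 and 0.02 in etomoxir and -0.20, -0.29 and -0.17 in etomoxir with SR-3420. The 3 triacsin C samples were the lowest of all 16, and the samples with triacsin C and SR-3420 came next. For the 99 lower genes the same quantity was 1.47, 1.44 and 1.35 in triacsin C, and lay between -0.29 and 0.13 in the 13 other samples. The samples of SR-3420 alone and vehicle did not enter the contrast that chose these genes, although they were part of the fit, which gave 220 genes with the 12 samples alone, 214 of them shared. There the median response to SR-3420 was -0.16 for the higher genes and 0.02 for the lower ones.

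The genes of the 2 directions differed in how much of the genome they span. The span is the distance from the annotated start to the end of a gene, introns included, and its median was 21740.5 bases over all genes tested. The 194 higher genes had a median span of 183853 bases and 169 of them (87.1%) exceeded 100 kb, which 1520 (11.9%) of all tested genes did. The 99 lower genes had a median span of 6676 bases and 65 of them (65.7%) were under 10 kb, against 3441 (26.9%) of all tested genes. Span was looked at after the values had been seen.

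The relation was graded. When the tested genes were put into 10 equal classes by span, the median difference between responses was -0.30 in the shortest class (348 to 4095 bases) and 0.53 in the longest (111489 to 2270659 bases). It increased at every step in between. The longest class held 161 of the 194 higher genes and 1 of the lower genes, and the 4 shortest classes held 24, 27, 19 and 13 of the lower genes. In the longest class 1048 of 1279 genes (81.9%) had a difference above 0, and in the shortest 206 of 1279 (16.1%).

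**Figure D2:**
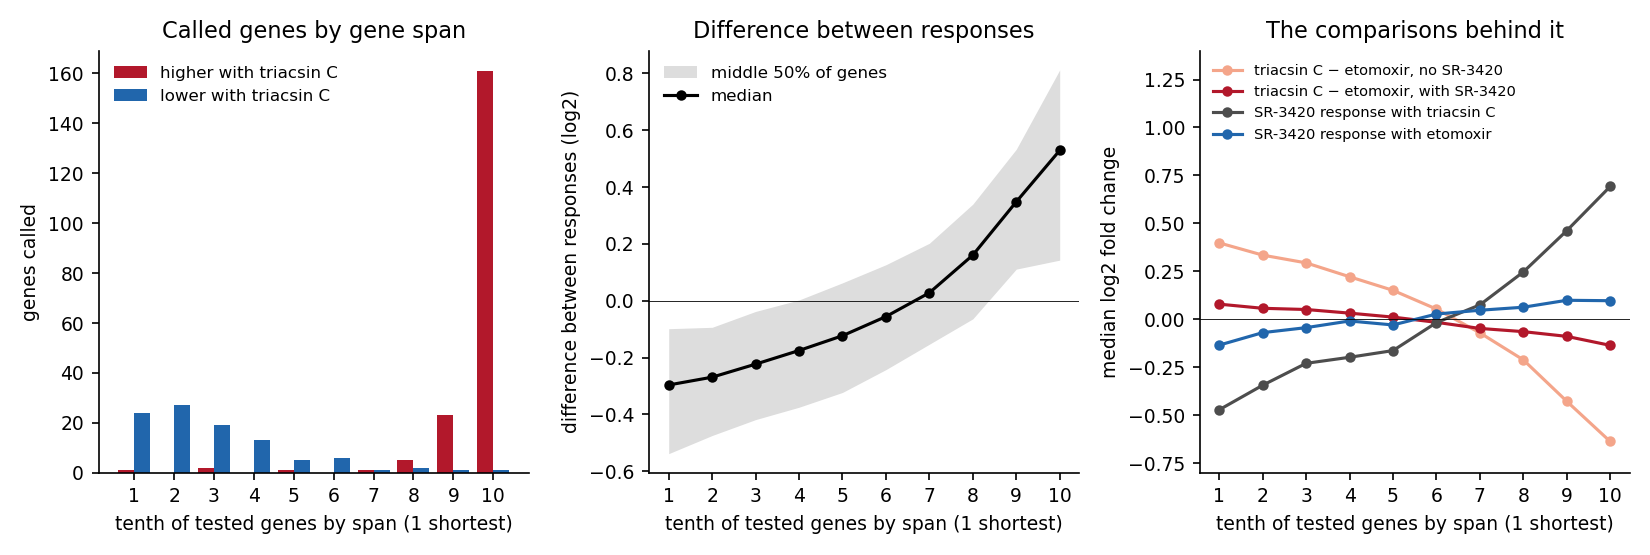
The horizontal axis of each panel is the class of span, from 1 (shortest) to 10 (longest). The panels show the number of genes called in each direction, the median and middle 50% of the log2 difference between responses, and the median log2 fold change in the 4 comparisons it is made of. The difference climbs from -0.30 to 0.53, and the steepest lines are triacsin C against etomoxir without SR-3420 and the SR-3420 response with triacsin C.

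The comparisons behind the difference varied in the same way. From the shortest to the longest class, the median of triacsin C minus etomoxir went from 0.40 to -0.64 without SR-3420, and from 0.08 to -0.14 with it. The median response to SR-3420 went from -0.47 to 0.69 with triacsin C and from -0.13 to 0.10 with etomoxir, and was 0.03 and 0.00211 with no inhibitor. The median thus moved most over span in the comparisons that include triacsin C without SR-3420.

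The same could be read in every sample. The median log2 level of the longest class minus that of the shortest was -0.42, -0.81 and -0.45 in triacsin C. It was 0.41, 0.45 and 0.77 in triacsin C with SR-3420, 0.31, 0.46 and 0.89 in etomoxir, 0.46, 0.76 and 1.00 in etomoxir with SR-3420, 0.29 and 0.69 in vehicle and 0.27 and 0.62 in SR-3420 alone. The 3 triacsin C samples were below 0 and the 13 others above it, and the other groups overlapped one another.

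**Figure D3:**
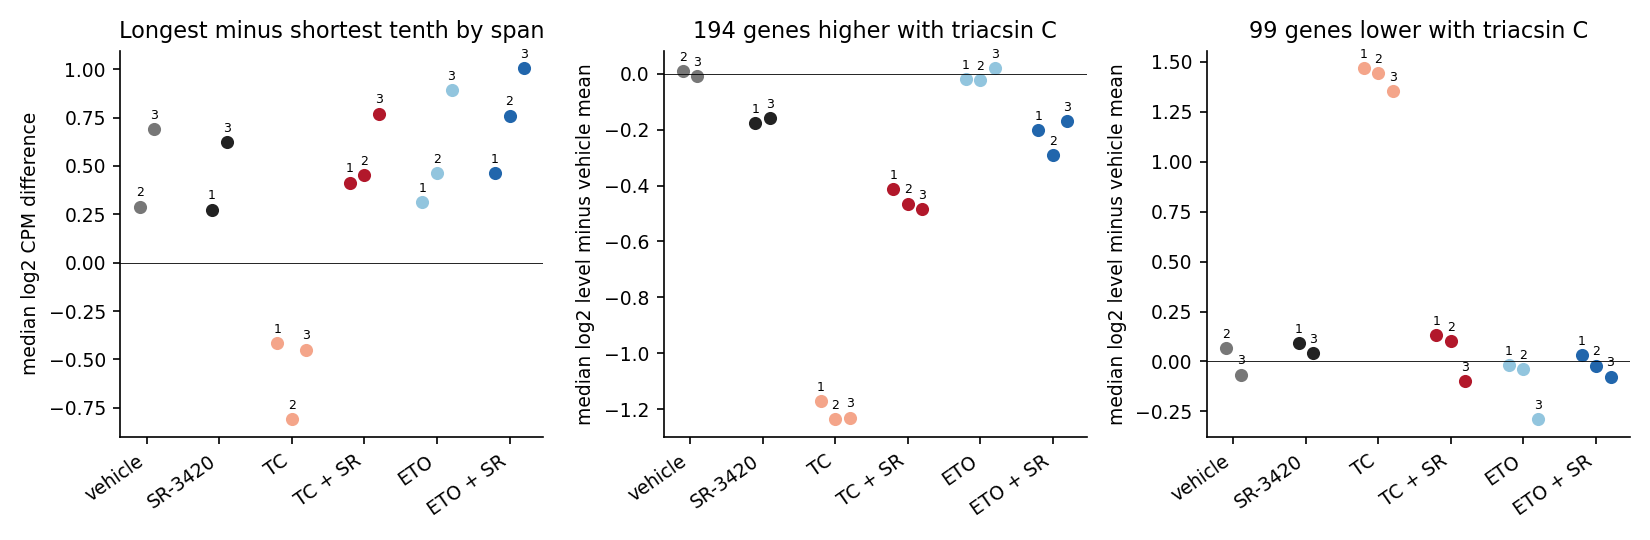
Each point is 1 sample, numbered by its replicate, in the 6 groups (TC, triacsin C; ETO, etomoxir; SR, SR-3420). The panels give the median log2 CPM of the longest minus the shortest class of span, and the median log2 level of the 194 higher and the 99 lower genes relative to the mean of vehicle. Triacsin C without SR-3420 stands apart from all other samples in each panel, by construction of the gene lists in the latter 2 panels.

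Genes were then compared within classes of counted length, the bases of a gene given as counted in the deposited data. Whether that length was equal between short and long spans within a class was not tested. Among the 3197 genes with the longest counted length (median 5631 bases), the median difference was -0.20 in the 640 genes of shortest span and 0.61 in the 640 of longest span. Among as many genes of the shortest counted length (median 1260 bases) it was -0.32 and 0.03. Across the 12786 genes Spearman's rho with the difference was 0.547 for span, 0.333 for counted length and 0.0255 for the mean normalized count. Genes are not independent replicates, and all of them share the same 12 libraries.

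When the trend of each sample over span was removed by an offset, an alternative chosen after the data were seen, 42 genes differed, 19 higher and 23 lower. Of these, 16 and 22 were among the genes called without the offset. The median difference of the 194 higher genes went from 0.98 to 0.55 with the offset. That of the 99 lower genes went from -1.61 to -1.35, so their calls fell more than their differences. The lower ones included Egln3, Ankrd37, Ffar4, Daam2, Pmp2, Gzmm, Klf10, Ak4 and Tmem79, and the higher ones Ralgps1, Prkce, Esr1, Ankrd44, Sntb1, Abcc4, Irf4, Fbxo32 and 8430408G22Rik. For several other genes named below, the difference and adjusted p after this step are given with them or at the end.

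Hypoxia-inducible genes were among those with the largest negative difference. Egln3 encodes an oxygen-dependent prolyl hydroxylase that marks HIF-alpha proteins for degradation and is itself a target of HIF. Its annotated span in mm9 is chr12:55279968-55304861, minus strand (RefSeq NM_028133). Its normalized counts were 460, 451 and 543 in etomoxir and 1826, 1186 and 3129 in etomoxir with SR-3420, while they were 1204, 1454 and 1537 in triacsin C and 911, 1000 and 1093 in triacsin C with SR-3420. The groups did not overlap in either arm, and the order of the 2 states was opposite. The 2 vehicle samples had 756 and 704, and SR-3420 alone had 3872 and 4048, the highest level of all samples. The response was 2.08 (SE 0.26) with etomoxir and -0.50 (SE 0.25, edgeR adjusted p = 0.133) with triacsin C, and their difference was -2.59 (SE 0.36, edgeR adjusted p = 0.00334).

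Ankrd37, an ankyrin repeat protein and another known HIF target, had lower counts. Its span, chr8:47082262-47085204 on the minus strand (NM_001039562), overlaps Ufsp2, so that reads of the 2 genes may not be separable. Normalized counts were 43.5, 27.2 and 38.8 in etomoxir and 126, 110 and 127 with SR-3420, and 205, 242 and 220 in triacsin C and 128, 143 and 124 with SR-3420. The gene thus rose in one arm and fell in the other, to about the same level. The response was 1.73 (SE 0.17) with etomoxir and -0.77 (SE 0.16, edgeR adjusted p = 0.00212) with triacsin C, and the difference was -2.50 (SE 0.24, edgeR adjusted p = 0.000297).

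The list of glycolysis and HIF targets as a whole had a median difference of -0.39, and 29 of its 34 tested genes (85.3%) were below 0, against 7168 of all genes tested (56.1%). By edgeR only Egln3 and Ankrd37 of the list passed the test for the difference, against 2.29% of all genes tested. DESeq2 called 4 of the 34, against 5.33% of all genes tested. With etomoxir 18 of the 34 rose and 1 fell under SR-3420, and with triacsin C 14 rose and 4 fell. Of all genes tested, 12.5% rose and 12.8% fell with etomoxir, and 17.3% rose and 19.7% fell with triacsin C. Ak4, a mitochondrial adenylate kinase outside the list and named after its values were seen, had a difference of -1.65 (SE 0.39).

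Because Ankrd37, Egln3 and the transcriptional repressor Bhlhe40 all had a negative difference and are known to answer to hypoxia, the 250 bases before their annotated starts are shown. They were read from the NCBIM37 assembly, which is mm9, in the direction of transcription, and capitals mark the letters ACGTG, the core of the hypoxia response element, or CACGT, the same on the other strand.
Ankrd37 (chr8:47085205-47085454, minus strand): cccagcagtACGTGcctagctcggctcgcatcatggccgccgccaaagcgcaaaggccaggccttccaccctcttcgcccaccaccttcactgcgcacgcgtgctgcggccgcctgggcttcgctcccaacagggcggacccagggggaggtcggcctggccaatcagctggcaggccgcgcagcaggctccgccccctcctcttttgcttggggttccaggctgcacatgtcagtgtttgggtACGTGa
Egln3 (chr12:55304862-55305111, minus strand): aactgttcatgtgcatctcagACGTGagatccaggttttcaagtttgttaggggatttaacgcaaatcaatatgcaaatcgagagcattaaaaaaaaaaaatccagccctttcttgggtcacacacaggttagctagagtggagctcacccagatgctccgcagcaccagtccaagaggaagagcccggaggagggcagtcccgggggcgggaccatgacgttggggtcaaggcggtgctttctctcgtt
Bhlhe40 (chr6:108610373-108610622, plus strand): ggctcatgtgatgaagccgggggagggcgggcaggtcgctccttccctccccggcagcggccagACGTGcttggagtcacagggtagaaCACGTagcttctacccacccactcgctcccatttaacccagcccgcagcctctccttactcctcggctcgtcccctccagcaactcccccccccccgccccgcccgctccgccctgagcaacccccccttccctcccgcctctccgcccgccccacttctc
Ankrd37 had matches that begin at -241 and -6 from the start, Egln3 at -229, and Bhlhe40 at -186 and -161. ACGTG was present on either strand in 16 of the 34 windows of the glycolysis and HIF list (47.1%), in 2762 of the 12786 windows of all genes tested (21.6%), in 21 of 99 lower genes (21.2%) and in 36 of 194 higher genes (18.6%). The share among the called genes was thus near that of all genes. CACGTG, which contains the first motif, was found in 8.31% of all windows and 7.07% of those of lower genes. TGANTCA was found in 4.14% and 7.07%, TGACGTCA in 2.81% and 2.02%, TGATGNAA in 1.81% and 4.04%, GTAAACA in 1.97% and 4.04%, and GAANNTTC in 4.83% and 7.07%. These shares are descriptions of letters in a window.

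Ppp1r3c and Ppp1r3b encode subunits that direct protein phosphatase 1 to glycogen, and both fell under SR-3420 with triacsin C. Ppp1r3c had normalized counts of 1132, 1082 and 1376 in triacsin C and 109, 96.3 and 131 with SR-3420, and 187, 247 and 247 in etomoxir and 134, 88.5 and 339 with SR-3420. Triacsin C alone was above all 13 other samples, and the 2 etomoxir groups overlapped. Its difference was -3.17 (SE 0.51, edgeR adjusted p = 0.00692, and -2.82 with 0.0544 when the span trend was removed). For Ppp1r3b the difference was -2.09 (SE 0.50), and the call was lost in 9 of 12 fits that left out 1 sample.

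Ffar4 encodes a receptor for long-chain fatty acids that is abundant in adipocytes. Its normalized counts were 811, 1193 and 965 in triacsin C and 219, 189 and 186 with SR-3420. With etomoxir they were 460, 360 and 350 without and 526, 222 and 669 with SR-3420, and they were 582 and 477 in vehicle and 1925 and 1351 with SR-3420 alone. The etomoxir groups overlapped because of replicate 2 of etomoxir with SR-3420, and the triacsin C groups were far apart. The response was -2.34 (SE 0.32) with triacsin C and 0.28 (SE 0.30, edgeR adjusted p = 0.547) with etomoxir, a difference of -2.62 (SE 0.43, edgeR adjusted p = 0.00790).

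Daam2, a formin that organizes actin and 1 of 2 lower genes that span over 100 kb (108316 bases), had 509, 480 and 544 normalized counts in triacsin C and 115 to 180 in all other samples. Its difference was -2.08 (SE 0.20, edgeR adjusted p = 0.000297). Tmem82 (-2.48), the semaphorin Sema3g (-2.16) and Pdzd7 (-2.13) were among the 12 largest negative differences past the threshold at a mean normalized count of at least 50, as were Gzmm, Fabp9 and Pmp2. Sema3g rose under SR-3420 with etomoxir (2.28, SE 0.29) and had a response of 0.12 (SE 0.27, edgeR adjusted p = 0.75) with triacsin C.

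Atf3, Mt2, Bhlhe40, Hilpda, Angptl4 and Fosl2 rose under SR-3420 in each arm, and all were higher in triacsin C than in etomoxir before it. Atf3, a stress-induced bZIP repressor, had 303, 317 and 264 normalized counts in etomoxir, 2626, 3285 and 3028 with SR-3420, 1052, 1315 and 1170 in triacsin C and 5008, 5863 and 5582 with SR-3420. None of these 4 groups overlapped. Its response was 3.34 (SE 0.15) with etomoxir and 2.20 (SE 0.14) with triacsin C, a difference of -1.15 (SE 0.19, edgeR adjusted p = 0.00790). Atf3 and the metallothionein Mt2, a metal-binding protein named after its values were seen, stayed higher in triacsin C than in etomoxir also with SR-3420, by 0.88 and 2.02 on the log2 scale.

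Mt2 had 742, 567 and 632 normalized counts in etomoxir, 3207, 3328 and 2714 with SR-3420, 6456, 8194 and 7540 in triacsin C and 12040, 12340 and 13080 with SR-3420. It rose in each arm, by 2.26 (SE 0.14) with etomoxir and by 0.74 (SE 0.14) with triacsin C. The zinc-finger factor Klf10 (-1.23), the AP-1 subunit Fosl2 (-0.69), the repressor Bhlhe40 (-1.35) and the lipid-droplet protein Hilpda (-1.27) had the same direction of difference. So did Angptl4, a secreted inhibitor of lipoprotein lipase (-0.70), and Acot4, a peroxisomal acyl-CoA thioesterase (-1.49). With the span trend removed, the difference was -0.92 for Atf3 (edgeR adjusted p = 0.0528), -1.15 for Mt2 (0.0842), -1.01 for Bhlhe40 (0.132), -0.86 for Hilpda (0.104), -0.55 for Fosl2 (0.157), -0.36 for Angptl4 (0.481) and -1.16 for Acot4 (0.188), all past the threshold before.

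Hexim1 and Polr2a are named after their values were seen. Hexim1 encodes the protein that holds the elongation kinase P-TEFb inactive, and Polr2a the largest subunit of RNA polymerase II. Hexim1 had 4996, 5201 and 5244 normalized counts in triacsin C and 1287, 1304 and 1277 with SR-3420, against 1905, 1955 and 1929 in etomoxir and 1078, 927 and 1071 with SR-3420. Triacsin C alone lay above all other samples, the highest of which, a vehicle sample, had 2458. The difference was -1.11 (SE 0.14, edgeR adjusted p = 0.00191) for Hexim1 and -0.92 (SE 0.21, edgeR adjusted p = 0.0378) for Polr2a, and -0.72 and -0.81 with the span trend removed (edgeR adjusted p = 0.0964 and 0.270).

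**Figure D4:**
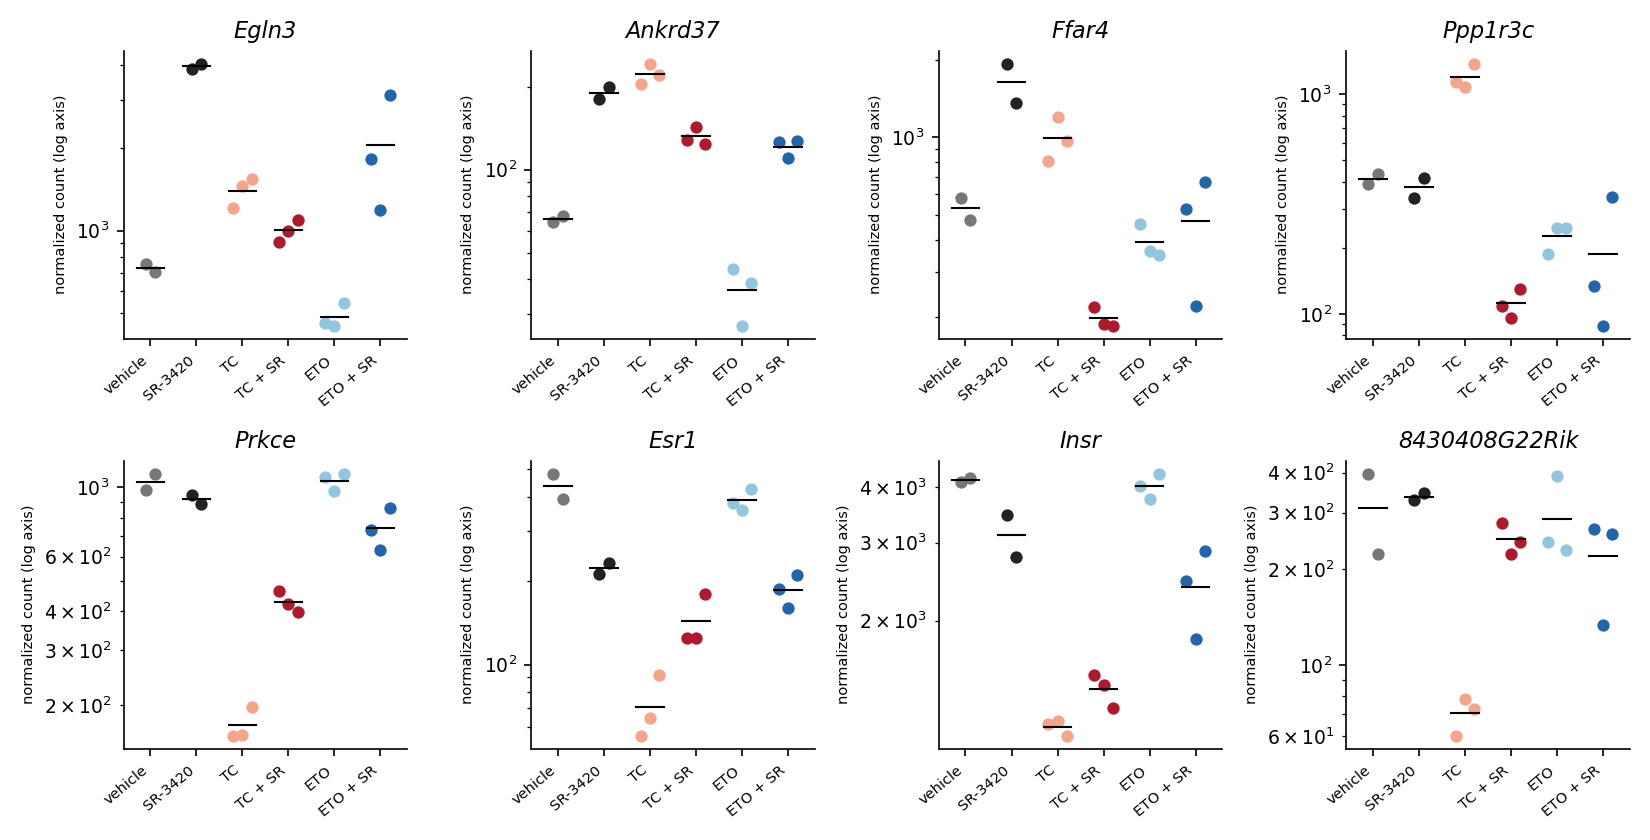
Normalized counts (log axis) of 8 genes in each of the 16 samples, by group, with a line at the group mean (TC, triacsin C; ETO, etomoxir; SR, SR-3420). Egln3 and Ankrd37 rise from etomoxir to etomoxir with SR-3420 but not from triacsin C to triacsin C with SR-3420, Ffar4 and Ppp1r3c fall from triacsin C to triacsin C with SR-3420, Ffar4 is highest in SR-3420 alone and Ppp1r3c in triacsin C, and the genes of the lower row are lowest there.

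Some of the lower genes stood close behind a strongly expressed gene. Fabp9 and Pmp2, which encode fatty acid-binding proteins of testis and myelin, follow Fabp4, the fatty acid-binding protein of adipocytes, on the minus strand. Fabp9 (chr3:10193624-10197283) begins 7059 bases after the end of Fabp4 (chr3:10204343-10208576), and Pmp2 (chr3:10179851-10183885) 9738 bases after Fabp9. The 3 genes belong to 1 family with related sequences, and whether reads were split between them cannot be told from the counts.

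Pmp2 had 849, 716 and 848 normalized counts in triacsin C, and from 3.03 to 20.5 in the 13 other samples. Fabp9 had 343, 171 and 279 in triacsin C and at most 9.40 elsewhere, with 1 sample of SR-3420 alone at 0. Per kb of counted length, the mean in triacsin C was 184000 for Fabp4, 409 for Fabp9 and 590 for Pmp2, and in etomoxir it was 158000, 7.85 and 8.21. Triacsin C alone was thus distinct for both downstream genes, while Fabp4 itself had a difference between responses of -0.48 (SE 0.32, edgeR adjusted p = 0.647). The difference was -4.89 (SE 0.46, edgeR adjusted p = 0.000297) for Pmp2 and -4.54 (SE 0.77, edgeR adjusted p = 0.00858) for Fabp9, whose call was lost without etomoxir with SR-3420 replicate 1 (edgeR adjusted p = 0.0660).

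**Figure D5:**
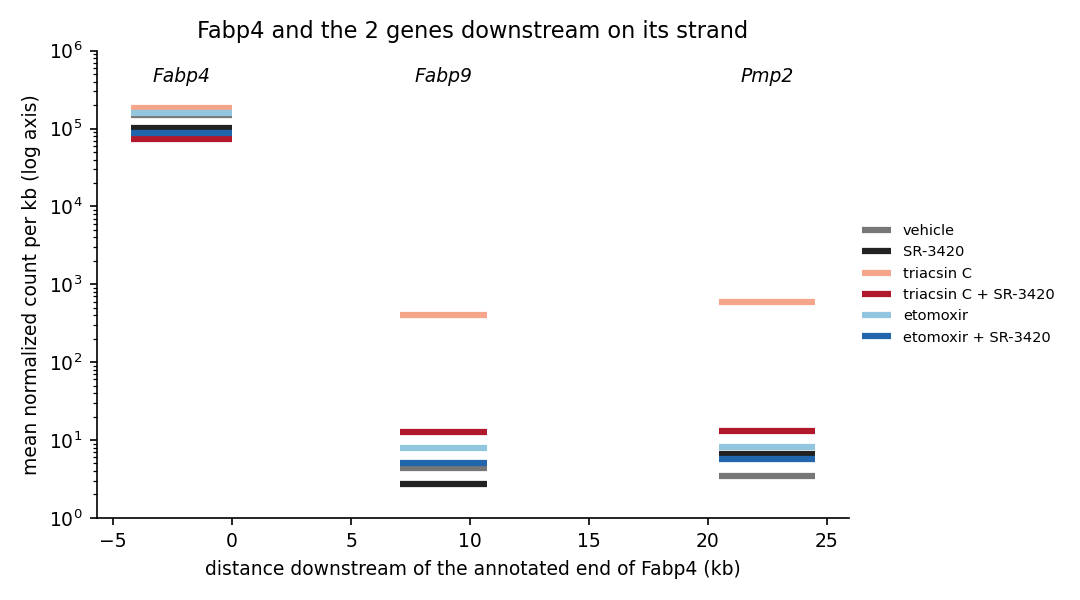
Mean normalized counts per kb of counted length (log axis) in the 6 groups for Fabp4, Fabp9 and Pmp2, each drawn as a bar over its span at its distance downstream of the end of Fabp4. In triacsin C the downstream genes reach 409 and 590 per kb, and in the other groups they lie between 2.69 and 13.2.

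More generally, 23 of the 99 lower genes (23.2%) had on the same strand, within 10000 bases before their start, a gene with at least 10 times their normalized count per kb. This was so for 450 of 12786 genes tested (3.52%) and for 0 of the 194 higher genes. Where the mean normalized count was 50 or more, it was 9 of 74 lower genes (12.2%) against 137 of 10706 (1.28%). A gene that is high in triacsin C alone can pass the filter on low counts through that group, so these shares are given as a description. Examples were Gzmm behind Cdc34 at 621 bases, Lag3 behind Ptms at 1969 bases, Pabpc1l behind Ywhab at 6636 bases and Spatc1l behind Lss at 8337 bases. Spatc1l, named after its values were seen, had raw counts of 63, 111 and 86 in triacsin C and of 1 to 8 in the other samples. The upstream neighbours of these 4 had differences of -0.37, -0.51, 0.02 and -0.26. Where the reads of the downstream genes began was not tested, since only counts per gene were used.

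Among the higher genes, Prkce encodes protein kinase C epsilon, a lipid-dependent kinase. It spans 490135 bases (chr17:86567125-87057259, plus strand, NM_011104) and had 160, 161 and 197 normalized counts in triacsin C, 466, 422 and 400 with SR-3420, 1077, 973 and 1107 in etomoxir and 732, 628 and 857 with SR-3420. It rose in the triacsin C arm and fell in the etomoxir arm, and all 4 groups were apart from one another. The response was 1.29 (SE 0.14) with triacsin C and -0.50 (SE 0.13) with etomoxir, a difference of 1.80 (SE 0.19, edgeR adjusted p = 0.000582). With SR-3420 the log2 difference of triacsin C from etomoxir was still -0.79 (edgeR adjusted p = 0.0227).

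Esr1, the estrogen receptor alpha gene (chr10:5342780-5734495, minus strand, NM_007956), had 55.7, 64.5 and 91.6 normalized counts in triacsin C, 125, 125 and 179 with SR-3420, 381, 359 and 427 in etomoxir and 187, 159 and 210 with SR-3420. The levels of the 2 groups with SR-3420 overlapped and those without it did not. Its difference was 2.05 (SE 0.29, edgeR adjusted p = 0.00357). Insr, the insulin receptor, had 1167, 1191 and 1102 in triacsin C, 1507, 1434 and 1273 with SR-3420, 4030, 3768 and 4289 in etomoxir and 2463, 1818 and 2874 with SR-3420. The triacsin C groups were both below those with etomoxir, and the difference was 1.01 (SE 0.21, edgeR adjusted p = 0.0216).

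At a mean normalized count of at least 50, the largest positive difference past the threshold was that of Ralgps1, a guanine nucleotide exchange factor for Ral that overlaps Angptl2 (2.64, SE 0.29, edgeR adjusted p = 0.000639). It was followed by the syntrophin gene Sntb1 (2.24) and by 8430408G22Rik (2.17). The remaining ones of the 12 largest were Esr1, the p53 relative Trp63 (1.94), the chromatin remodeller Chd7 (1.92), the exocyst subunit Exoc6 (1.92), Ankrd44 (1.89), the phospholipase C genes Plcb1 (1.84) and Plcl2 (1.78), Prkce and Fam160a1 (1.69). With the span trend removed the following were no longer past the threshold: Trp63 (1.44, edgeR adjusted p = 0.266), Chd7 (1.45, 0.172), Exoc6 (1.49, 0.155), Plcb1 (1.35, 0.0583), Plcl2 (1.30, 0.0988), Fam160a1 (1.37, 0.121) and Insr (0.60, 0.406).

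8430408G22Rik was the exception among these genes, with a span of 2164 bases inside a region that overlaps Rassf4. It had 60.1, 78.5 and 72.9 normalized counts in triacsin C and 133 to 397 in the 13 other samples. Triacsin C alone was thus the lowest group, as for the long genes. Its difference was 2.17 (SE 0.41, edgeR adjusted p = 0.0142), and 2.58 (SE 0.38) with the span trend removed. Fbxo32, a muscle-atrophy ubiquitin ligase of 39014 bases that was named after its values were seen, fell under SR-3420 with etomoxir (-1.52, SE 0.17) and had a response of -0.28 (SE 0.17, edgeR adjusted p = 0.213) with triacsin C.

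None of the Acsl and Cpt1 genes tested, nor Cpt2, passed the test for the difference in the model without a term for replicate number. By edgeR 0 of 13 tested acyl-CoA synthetase genes were called, 0 had an unadjusted p under 0.05, and 0 were called by DESeq2. Of the carnitine shuttle list 0 of 11 were called by edgeR, 5 had an unadjusted p under 0.05 and 1 was called by DESeq2. Of all 12786 genes tested, 1596 (12.5%) had an unadjusted p under 0.05 and 682 (5.33%) were called by DESeq2. Acsl1, the main long-chain acyl-CoA synthetase of adipocytes, had 9164, 8287 and 9387 normalized counts in triacsin C, 6148, 6321 and 7337 with SR-3420, 17970, 18470 and 24370 in etomoxir and 11290, 8890 and 17660 with SR-3420. Each triacsin C sample was below every etomoxir sample without SR-3420, with a log2 difference of -1.15 (edgeR adjusted p = 0.00208). The difference between responses was 0.22 (SE 0.29) for Acsl1, -0.19 (SE 0.53) for Acsl3, 0.65 (SE 0.70) for Acsl4 and -0.13 (SE 0.33) for Acsl5. It was 0.07 (SE 0.26) for Cpt1a, -0.80 (SE 0.28, edgeR adjusted p = 0.200) for Cpt1b and -0.61 (SE 0.20, edgeR adjusted p = 0.153) for Cpt2. The counted length of Cpt1b was only 150 bases. With a term for replicate number in the model, Cpt2 was called (edgeR adjusted p = 0.0469). The carnitine list then had 1 higher and 1 lower gene called. Acsl6 did not pass the filter on low counts.

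Of 4 genes the study uses as examples, Ffar4 passed the test for the difference and Pdk4, Plin2 and Cyp26b1 did not. Pdk4, a kinase that restrains pyruvate oxidation, rose by 1.19 (SE 0.17) with triacsin C and by 1.61 (SE 0.17) with etomoxir, and the difference of -0.42 (SE 0.23) had an edgeR adjusted p of 0.522. Plin2, a coat protein of lipid droplets, rose by 1.23 (SE 0.21) and 1.43 (SE 0.21), with a difference of -0.19 (SE 0.29, edgeR adjusted p = 0.894). Cyp26b1, which degrades retinoic acid, rose by 0.74 (SE 0.19) and 1.26 (SE 0.18), with a difference of -0.53 (SE 0.26, edgeR adjusted p = 0.445). It was nevertheless among the 38 genes that were unequal with SR-3420, at -1.03 (edgeR adjusted p = 0.0307).

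In all, 37 gene lists covered 791 of the genes tested, and 18 of these passed the test for the difference, 5 higher and 13 lower, against 293 of 12786 genes tested (2.29%). By edgeR, called members were found in 14 lists and never exceeded 2 in a list. Among PPAR target genes of lipid metabolism 2 of 31 were lower (Angptl4 and Hilpda), and the median difference was -0.55 with 29 of 31 (93.5%) below 0, against 56.1% of all genes tested. Their median response was -0.70 with triacsin C and 0.08 with etomoxir. Mitochondrial beta-oxidation genes had a median of -0.41 with 18 of 18 below 0, and edgeR called 0, with 4 at an unadjusted p under 0.05 and 3 called by DESeq2. Nuclear-encoded respiratory chain subunits had a median of -0.43 with 75 of 76 below 0, and edgeR called 0, with 17 at an unadjusted p under 0.05 and 5 called by DESeq2. Over all genes tested these shares were 56.1% below 0, 12.5% at an unadjusted p under 0.05 and 5.33% called by DESeq2. SR-3420 lowered 57 of the 76 respiratory chain genes with triacsin C and 28 with etomoxir, where it lowered 19.7% and 12.8% of all genes tested. The PPAR target and respiratory chain genes are short, with median spans of 11127 and 6981.5 bases. Of all genes tested that span 7336 to 11223 bases, 21.5% had a difference above 0, and of those that span 4098 to 7335 bases, 16.3%. The part of span in the shift of these lists was not tested.

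Many integrated stress response targets of ATF4 rose in each arm. Of 42, SR-3420 raised 32 with triacsin C and 31 with etomoxir, against 17.3% and 12.5% of all genes tested. The median response was 0.82 in each, and the median difference was 0.04. By edgeR only Atf3 was called for the difference, against 2.29% of all genes tested. DESeq2 called 4 of the 42, against 5.33% of all genes tested. Of the 23 genes listed as AP-1, EGR and NR4A immediate early factors, 20 rose with triacsin C and 22 with etomoxir, against the same 17.3% and 12.5%. The zinc-finger factor Klf10, also on the list, belongs to none of these families. The median difference was -0.43, and 21 of 23 (91.3%) were below 0, against 56.1% of all genes tested. By edgeR Fosl2 and Klf10 were called, against 2.29% of all genes tested. At an unadjusted p under 0.05 there were 10, against 12.5%, and DESeq2 called 3, against 5.33%. Triacsin C exceeded etomoxir before SR-3420 for 14 of these 23 genes, against 8.08% of all genes tested. The 23 genes are short, with a median span of 5169 bases, and the part of span was not tested. The study's own list of unfolded protein response markers, which is not independent evidence, had 1 of 24 called (Atf3) and a median of -0.05.

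Single members were called in further lists, against 2.29% of all genes tested. These were Acot4 of 10 acyl-CoA thioesterases (median -0.38), Ffar4 of 14 lipases and fatty acid receptors (-0.31) and Hspa1l of 26 cytosolic heat shock proteins (-0.06). The others were Bhlhe40 of 20 clock genes (0.32), the ER stress sensor Atf6 of 36 ER chaperone and folding genes (-0.02) and the export pump Abcc4 of 29 NRF2 targets (-0.14). Insr and the pseudokinase gene Trib1 were called of 23 insulin signalling genes (-0.03), in opposite directions, and Uvrag, an autophagy gene, and the transcription factor gene Mitf of 38 autophagy and lysosome genes (-0.03). By edgeR an unadjusted p under 0.05 was reached by 4 thioesterases, 2 lipase and receptor genes, 4 heat shock genes and 7 clock genes. The same held for 2 ER genes and 4 each of the NRF2, insulin and autophagy lists, against 12.5% of all genes tested. DESeq2 called 3 heat shock genes and 2 each of the thioesterase, clock, insulin and autophagy lists. It called 1 each of the lipase, ER and NRF2 lists, against 5.33% of all genes tested. Atf6 (0.87), Uvrag (0.74), Mitf (1.42) and Abcc4 (1.47) were higher, with spans of 163315, 254402, 214301 and 223528 bases, and Hspa1l (-1.04) and Trib1 (-0.85) were lower. The NRF2 list is known for antioxidant defence, and 6 of its members, among them Hmox1, Nqo1, Srxn1, Gclc and Txnrd1, were higher in triacsin C than in etomoxir with SR-3420, out of the 15 such genes in all (0.117% of those tested).

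No member was called in 23 lists, including the cell type markers other than those of macrophages. Their medians were -0.10 for triglyceride synthesis, -0.38 for fatty acid synthesis, -0.13 for cholesterol synthesis, -0.22 for LXR targets, -0.21 for brown fat identity, -0.26 for MAP kinase phosphatases, 0.45 for EGF-family genes and -0.24 for inflammatory genes. They were -0.46 for adipokines and adipogenic factors, -0.24 for retinoid genes, -0.21 for p53 targets, -0.08 for ribosome biogenesis, -0.18 for proteasome subunits, -0.02 for cell cycle genes and -0.22 for extracellular matrix genes. For the acyl-CoA synthetase and carnitine lists they were -0.20 and -0.26. DESeq2 called 2 members each of the triglyceride synthesis, fatty acid synthesis, brown fat and adipokine lists and 1 each of the p53, extracellular matrix and adipocyte marker lists, against 5.33% of all genes tested. At an unadjusted p under 0.05 by edgeR, which 12.5% of all genes tested had, there were 6 members each of the fatty acid synthesis and brown fat lists, 5 of the MAP kinase phosphatases, 4 of the p53 targets and 3 or fewer in each other list of this paragraph apart from the carnitine list.

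Of the markers of other cells, 8 of 10 preadipocyte, 4 of 8 skeletal muscle, 2 of 7 endothelial and 2 of 8 macrophage genes passed the filter on low counts. Of the 2 macrophage markers tested, Cd68 was called with a difference of -1.44 (SE 0.32) and was the only 1 below 0. The summed level of the 8 was 172, 195 and 180 normalized counts per kb in triacsin C and 43.4 to 101 in the other 13 samples, and Cd68 alone supplied 82.3 per kb on average. The markers Ptprc, Emr1, Itgam, C1qa and C1qb were at 0.743, 0.264, 0.415, 0.231 and 0.6765 per kb, and Csf1r and Lyz2 at 4.202 and 5.115. None of the 8 was at 0 in every sample. The sum of the 10 adipocyte markers was 279300 to 295600 per kb in triacsin C, 252400, 240400 and 288600 in etomoxir, 112500 to 122700 in triacsin C with SR-3420 and 104700 to 183600 in etomoxir with SR-3420, with a median difference of -0.47 and 0 of 10 called. Preadipocyte markers, led by Col1a1 at 5819 per kb, had 0 of 8 called (median -0.18). Their sum was 7884, 6929 and 6014 per kb in triacsin C and 14230, 11820 and 9288 with SR-3420, and 6826, 5033 and 3430 in etomoxir and 14500, 10360 and 7166 with SR-3420. It was 5685 and 4979 in vehicle and 12090 and 8854 in SR-3420 alone. In no arm did the samples with and without SR-3420 overlap, the sum itself was not tested, and 3 of the 8 genes rose with triacsin C and 5 with etomoxir, against 17.3% and 12.5% of all genes tested. The part of such cells in the differences was not tested. Of the markers of other tissues, endothelial ones had 0 of 2 (-0.07) and skeletal muscle 0 of 4 (-0.15). In bulk RNA, fewer cells of a type and less RNA per cell cannot be told apart.

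Of the 45 named genes past the threshold that were followed through the alternatives, 30 were called in every fit without 1 of the 12 samples that tested them. Ak4, Fbxo32, Irf4, Tmem79, Lag3 and Pabpc1l, also named above, were not among the 45. These 30 include Gnb3 and Fam131a, 2 genes of low counts that were chosen after their values were seen, and Gnb3 was not tested without triacsin C replicate 2 or 3. The call was lost in 1 to 4 of 12 fits for Trib1 (without triacsin C replicate 2), Fosl2 (without triacsin C replicate 1 or triacsin C with SR-3420 replicate 2), Pdzd7, Insr and Fabp9, in 6 for Trp63, and in 8 to 11 for Uvrag, Mitf, Ppp1r3b, Acot4, Angptl4, Exoc6, Hspa1l, Polr2a and Cd68. Pdzd7 lost it without triacsin C replicate 2, triacsin C with SR-3420 replicate 3 or etomoxir with SR-3420 replicate 1, and Insr without any 1 of the triacsin C samples or triacsin C with SR-3420 replicate 1. Without both libraries that stood apart, triacsin C replicate 1 and etomoxir with SR-3420 replicate 2, 17 of the 45 were no longer past the threshold. These were Gnb3 (edgeR adjusted p = 0.0535), Fam131a (-3.14, 0.0580), Trib1 (-0.84, 0.0556), Plcl2 (1.56, 0.0629), 8430408G22Rik (1.83, 0.0679), Insr (0.87, 0.0680), Pdzd7 (-2.22, 0.0778), Fosl2 (-0.63, 0.0972), Acot4, Cd68, Hspa1l, Polr2a, Angptl4, Uvrag, Mitf, Exoc6 and Trp63. With counts thinned to the smallest library, Spatc1l was not called (-4.73, edgeR adjusted p = 0.125). For genes not yet given, the difference and edgeR adjusted p with the span trend removed were -1.91 and 0.0509 for Sema3g, -4.15 and 0.0543 for Fabp9, -2.13 and 0.0543 for Tmem82, -1.97 and 0.0860 for Pdzd7, -1.04 and 0.0860 for Cd68 and -1.85 and 0.187 for Ppp1r3b. They were -0.55 and 0.225 for Trib1, 0.41 and 0.239 for Atf6, 0.92 and 0.281 for Mitf, -0.72 and 0.326 for Hspa1l and 0.24 and 0.881 for Uvrag. For Gnb3 they were -5.18 and 0.0576, and for Fam131a -3.22 and 0.0528.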

How the data were processed

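RNA-seq was done on total RNA of 16 samples in 6 groups. The authors aligned reads to mm9 with STAR 2.4.2a, removed repeated reads of equal length and position with HOMER, counted reads per gene with iRNA-seq and deposited raw counts of 20295 genes. Such removal can limit counts of short, abundant genes, and whether it did so here was not tested. Strand use in counting is not given in the sources used here, so overlapping genes may share reads.

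From the deposited counts, 12786 genes passed filterByExpr. A model with 6 group means and no covariate was fitted to all 16 samples with edgeR 4.0.16 (R 4.3.3, TMM, quasi-likelihood test), and p-values were adjusted by Benjamini-Hochberg over these genes, with calls at 0.05. SE is the log2 difference divided by the root of the test statistic. Normalized counts use size factors of DESeq2 1.42.0. Figures used matplotlib 3.10.9.

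Genes named were the 12 largest differences per direction past the threshold without and with a replicate term at a mean normalized count of at least 50, up to 4 called genes per direction of each of 37 lists, the inhibitors' targets, Cpt2 and 4 study examples. Other genes called for the difference, and Fabp4, were named after their values were seen. Upstream windows of 250 bases used the starts in the deposited table. The samples and lists were chosen with earlier results of these data known. The test was tried on simulated data. Alternatives were other size factors, DESeq2, other filters, only 12 samples, a replicate term, leaving out each sample, thinned counts, a minimum size, and, added after seeing the data, removal of trends over span or counted length and leaving out 2 libraries together.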

Additional observations from a re-analysis of the deposited data

Results flagged for a closer look

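The test of the difference between the SR-3420 responses under the 2 inhibitors marked 293 genes, 194 with a higher and 99 with a lower response under triacsin C, and of the called genes the 12 largest differences per direction among those averaging 50 or more normalized counts, and members of the gene lists, are given here on the log2 scale. Genes chosen only after their values were seen are left out.

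Lower responses under triacsin C were found for Pmp2 (-4.89), Fabp9 (-4.54), Ppp1r3c (-3.17), Gzmm (-2.89), Ffar4 (-2.62), Egln3 (-2.59), Ankrd37 (-2.50), Tmem82 (-2.48), Sema3g (-2.16), Pdzd7 (-2.13), Ppp1r3b (-2.09) and Daam2 (-2.08). Smaller ones were found for Acot4 (-1.49), Cd68 (-1.44), Bhlhe40 (-1.35), Hilpda (-1.27), Klf10 (-1.23), Atf3 (-1.15), Hspa1l (-1.04), Trib1 (-0.85), Angptl4 (-0.70) and Fosl2 (-0.69).

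Higher responses under triacsin C were found for Ralgps1 (2.64), Sntb1 (2.24), 8430408G22Rik (2.17), Esr1 (2.05), Trp63 (1.94), Chd7 (1.92), Exoc6 (1.92), Ankrd44 (1.89), Plcb1 (1.84), Prkce (1.80), Plcl2 (1.78) and Fam160a1 (1.69). Members of the gene lists were Abcc4 (1.47), Mitf (1.42), Insr (1.01), Atf6 (0.87) and Uvrag (0.74).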

How the results depend on the processing

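The direction of the difference held for all 45 called named genes that were followed, under every alternative run for them. Calls were lost, however: 30 with the span trend removed, 17 without both libraries that stood apart, 8 with the trend over counted length removed, 6 with the 12 samples alone and 6 with thinned counts. DESeq2 lost 0. Genes that were never called and lay near 0 changed sign: with the span trend removed, chosen after seeing the data, Plin2 was 0.0221, Cpt1a -0.15 and Acsl1 -0.00683. Leaving out 1 sample, Acsl3 ranged from -0.49 to 0.0686, Acsl5 from -0.35 to 0.0215 and Cpt1a from -0.11 to 0.25.

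Counts of genes moved more. The 293 (194 higher, 99 lower) became 682 (454, 228) with DESeq2's Wald test, 178 (95 higher) at a difference of at least 1 in size, 42 (19, 23) with the span trend removed, 194 (118 higher) with the trend over counted length removed and 106 (59, 47) without both libraries that stood apart, which also leaves fewer samples. Without a filter on low counts there were 59 lower genes. DESeq2's size factors gave 298, the stricter filter 274, thinned counts 245 and the 12 samples alone 220. Leaving out 1 sample gave 145 to 262 genes, 92 to 171 higher and 51 to 91 lower. The samples whose absence moved the higher count by over 1.5 times were triacsin C replicates 2 and 3 (94 and 92), triacsin C with SR-3420 replicates 1 and 3 (100 and 128), etomoxir replicates 1 and 2 (128 and 100) and etomoxir with SR-3420 replicates 1 and 2 (128 and 112). The lower count was 63, 51 and 54 without each triacsin C sample, 62, 60 and 64 without each of triacsin C with SR-3420, 56 without etomoxir replicate 2 and 63 without etomoxir with SR-3420 replicate 1. The cause was not tested.

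The SR-3420 response with triacsin C (4722 genes) ranged from 3506 to 5144 when 1 sample was left out. That with etomoxir (3234) ranged from 1989, without etomoxir with SR-3420 replicate 2, to 3199, and was 1779 without both libraries. Triacsin C against etomoxir without SR-3420 (2158) ranged from 1247, without triacsin C replicate 2, to 2289, was 1405 without triacsin C replicate 3, 1056 with the span trend removed and 1386 without both libraries. With SR-3420 (38) it ranged from 3 to 83, and was 206 with DESeq2, 24 with the 12 samples alone and 64 without both libraries.

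With the replicate block the counts were 1055 (634 higher, 421 lower), 7185 and 5776 for the responses with triacsin C and etomoxir, 4994 without SR-3420 and 265 with it, and called list members rose from 19 to 86, counting a gene once per list. All 293 genes were called with the block, and Cpt2 was called with it as well (edgeR adjusted p = 0.0469). Deviations of same-numbered samples correlated over 0.1 in 12 of 18 pairs (mean of the 18 0.377, against -0.191 for different numbers). Those 12 pairs, from 0.32 to 0.904, were the ones without triacsin C replicate 1 and etomoxir with SR-3420 replicate 2. Of 12 samples, 7 correlated best with their own number. The mean correlation with other samples of their own number was -0.317 for triacsin C replicate 1 and -0.128 for etomoxir with SR-3420 replicate 2. The smallest library held 9452861 counts, thinning all to it gave 245 genes, and the limit set by depth was not tested by class of count.

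The median difference of the longest minus the shortest class of span (0.83) stayed above 0 under each alternative run for it, which did not include the removal of a trend, and ranged from 0.65 to 1.00 when 1 sample was left out.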
